A study of Mus musculus with 160 samples.

Results

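The *Gata3*-GFP+ endothelial cell (EC) pools were split into a Top2a-high class and a Top2a-low class, selected by the level of *Top2a* itself. Of the 20 *Gata3*-GFP+ EC pools, among 160 pools in the whole series, 19 held more than 500000 counts on genes and ERCC spike-ins with under 20% of them on the spike-ins (control RNAs added to each lysate). These 19 were ranked by the CPM of *Top2a* (its counts over the counts on all genes, scaled to 1000000), the 9 highest were set against the 9 lowest, and the 1 pool between them entered neither class. Each library was made by Smart-seq2 from 20 cells of the E10.5 aorta-gonad-mesonephros (AGM) region, the part of the embryo around the dorsal aorta. The cells were sorted as VE-cadherin+, CD41-, CD45- and GFP+, from embryos carrying 1 copy of a *Gata3*-GFP allele (genotype Gata3-GFP +/-). Both classes and the 20 *Gata3*-GFP- EC pools used for comparison shared that genotype, stage, tissue and gate apart from GFP. The study pooled embryos within each of several biological replicates, and the labels tie no pool to a replicate or an embryo. The p-values therefore measure the spread between pools, part of which may be technical, and in a pool of 20 cells fewer cycling cells and less RNA per cycling cell cannot be told apart.

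*Top2a* encodes DNA topoisomerase II alpha, which untangles replicated chromosomes and is made from S phase to mitosis, so its mRNA is widely used as a sign of cycling cells. The proteins of the cycle are switched on in waves: licensing factors and replication forks in G1 and S phase, then cyclins A and B, Cdk1, the mitotic kinases, kinesins and kinetochore proteins in G2 and mitosis. CDK inhibitors such as *Cdkn1c* (p57Kip2), *Cdkn1b* (p27) and *Cdkn1a* (p21) hold cells back by blocking cyclin-dependent kinases. Cell cycle state is of interest in this tissue because some ECs of the aorta, the hemogenic ECs, give rise to blood stem and progenitor cells by an endothelial-to-hematopoietic transition. The comparison addresses which genes differed between *Gata3*-GFP+ EC pools with much and with little *Top2a*.

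*Top2a* chose the classes, so its values are a description without a test. The Top2a-high pools, ranks 1 to 9, ran from 148 to 384 CPM with a median of 202, and the Top2a-low pools, ranks 11 to 19, from 25.6 to 118 with a median of 86.9. At the border, rank 9 lay at 148 CPM, the left-out pool at 145 and rank 11 at 118. These levels rested on 504 to 1246 *Top2a* counts per pool in the high class and on 72 to 443 in the low class, so every pool of both classes contained *Top2a* mRNA. In the *Gata3*-GFP- EC pools *Top2a* ran from 124.9 to 437 CPM with a median of 262, and all 9 Top2a-low pools lay below the lowest of them.

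**Figure D1:**
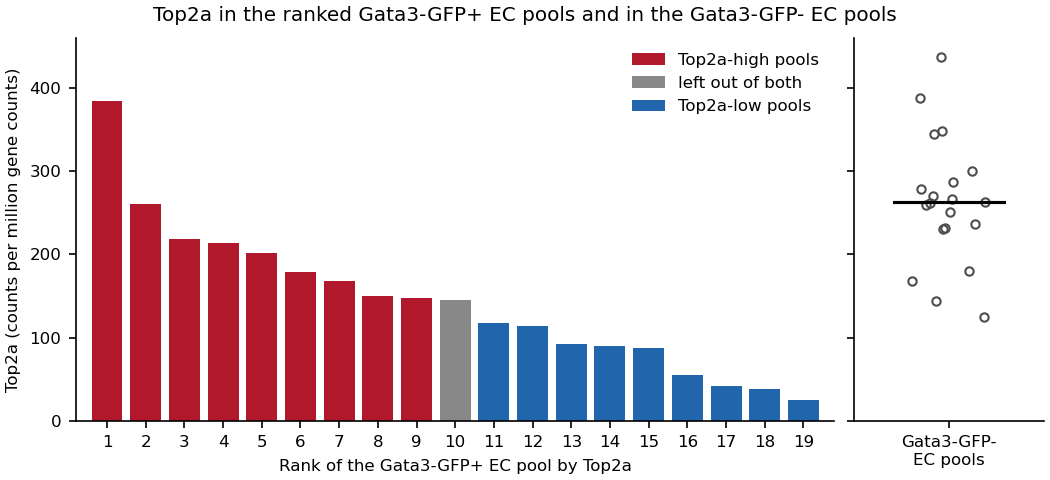
Top2a CPM of the 19 Gata3-GFP+ EC pools in rank order (bars; red Top2a-high, grey left out, blue Top2a-low) and for the 20 Gata3-GFP- EC pools (circles, with the median as a line). The levels ran from 384 at rank 1 down to 25.6 at rank 19, and every blue bar ended below the lowest circle, at 124.9.

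Endothelial mRNA was present in both classes, whose cells were sorted on an endothelial marker. *Cdh5*, which encodes VE-cadherin, ranged from 763 to 1265 CPM in the Top2a-high pools and from 774 to 1773 in the Top2a-low pools, and all 18 genes of an endothelial identity list were detected well enough to be tested. *Cdkn1c*, taken as a marker of quiescent cells, did not separate the classes. It ran from 239 to 596 CPM (median 405) in the Top2a-high pools and from 258 to 577 (median 345) in the Top2a-low pools. The classes overlapped across nearly their whole ranges, with a log2 fold change of 0.07 (SE 0.17; adjusted p = 0.998, edgeR quasi-likelihood, Benjamini-Hochberg), which does not show that the levels were equal. Since the low pools also held *Top2a* and the summed licensing genes of the classes overlapped, the pools are called by their *Top2a* level and the low class is not called quiescent.

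Sequencing depth overlapped between the classes, with 3059867 to 6006894 gene counts in the Top2a-high pools and 1400824 to 4476546 in the Top2a-low pools. The log2 ratio of gene to ERCC counts, a measure of RNA per pool, averaged 5.85 ± 0.22 (SD, n = 9) against 6.09 ± 0.59 (SD, n = 9), with p = 0.307 in a two-sided exact permutation test (0.409 after adjustment over 4 measures of RNA amount and quality, none of which passed). The mean of the high class was lower by 0.24 on this scale, and by 0.09 without the pool at rank 14. A pair of pools stood apart. The Top2a-low pool at rank 14 had the fewest gene counts (1400824), the highest share of reads outside genes (33.1%) and the highest gene to ERCC ratio (log2 7.34). The Top2a-high pool at rank 6 held 2600 CPM of *Acta2*, a smooth muscle actin, where the next pool of its class held 431.5, and 703 CPM of the fibroblast collagen gene *Col1a1*. Main counts are also given without these pools, an alternative added after they were seen.

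With *Top2a* removed before the fit, 13785 genes were tested by edgeR's quasi-likelihood test, and 4 rose in the Top2a-high pools with an adjusted p below 0.01 and a fold change past 0.1 on the log2 scale: *Tuba1b*, *Racgap1*, *Ccna2* and *Tuba1c*. They made up 0.0290% of the genes tested. No gene was called lower (0%). DESeq2's Wald test called 46 higher and 3 lower, and scanpy's test with overestimated variance, the test that the study used, 0 in both directions. At an unadjusted p under 0.05, 412 genes were higher (2.99%) and 361 lower (2.62%), and the median log2 fold change of all genes was -0.00. The levels of the 2 classes did not overlap at all for 13 genes that were higher (0.0943%) and 1 that was lower (0.00725%). An adjusted p under 0.05 was reached by 14 higher genes and 1 lower gene.

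*Tuba1b*, which encodes an alpha-tubulin, the subunit that pairs with beta-tubulin in spindle microtubules, had the smallest p. Its level ran from 235 to 435.5 CPM (median 346) in the Top2a-high pools and from 140 to 221 (median 204) in the Top2a-low pools, so every high pool lay above every low pool. The rise was 0.92 on the log2 scale (SE 0.12; adjusted p = 0.00444 in edgeR's quasi-likelihood fit, Benjamini-Hochberg adjusted). A second alpha-tubulin gene, *Tuba1c*, ran from 53.6 to 105.5 CPM (median 77.5) against 21.2 to 52.7 (median 32.7), without overlap but with only a narrow gap between the classes. It rose by 1.27 (log2; SE 0.20; adjusted p = 0.00831, same test). Alpha-tubulin genes have near-identical coding sequences, and how the counting shared reads between them is not known, so the split of the rise between *Tuba1b* and *Tuba1c* is uncertain. All 9 Top2a-low pools and 7 of the 9 Top2a-high pools lay below the lowest *Gata3*-GFP- pool for *Tuba1b*, at 412 CPM.

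*Racgap1* encodes a subunit of centralspindlin, which bundles the midzone of the anaphase spindle and sets the cleavage furrow. It ran from 55.2 to 119 CPM (median 70.8) in the Top2a-high pools and from 16.7 to 42.7 (median 27.5) in the Top2a-low pools, again without overlap, a rise of 1.43 (log2; SE 0.21; adjusted p = 0.00831, edgeR quasi-likelihood, Benjamini-Hochberg). *Ccna2*, cyclin A2, which activates Cdk2 in S phase and Cdk1 in G2, ran from 67.5 to 138 CPM (median 113) against 8.18 to 50.4 (median 27.8). It rose by 1.93 (log2; SE 0.30; adjusted p = 0.00831, same test), and no Top2a-low pool reached the lowest Top2a-high pool. In GENCODE M21 on GRCm38, 12.5% of the exon bases of *Ccna2* (chromosome 3, 36564865 to 36572150, minus strand) are shared with *Exosc9* on the opposite strand. Whether counting used strand was not stated, so some of those reads could belong to either gene. The 4 calls depended on single pools: leaving out each of the 18 pools in turn gave 0 to 7 higher genes, with 0 when the pool at rank 1, 3, 4, 5, 7, 14, 17 or 19 was left out, and 0 without both pools that stood apart (397 higher and 352 lower at an unadjusted p under 0.05). The 4 genes kept their direction in all 29 alternative settings, which all use the same *Top2a* values. With any 1 pool left out their adjusted p reached at most 0.0247 (edgeR quasi-likelihood, Benjamini-Hochberg). In the other settings it reached 0.570 (test of the setting, Benjamini-Hochberg). An adjusted p under 0.01 was reached in 17 of the 29 settings for *Tuba1b*, 11 for *Racgap1* and 8 each for *Ccna2* and *Tuba1c*.

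**Figure D2:**
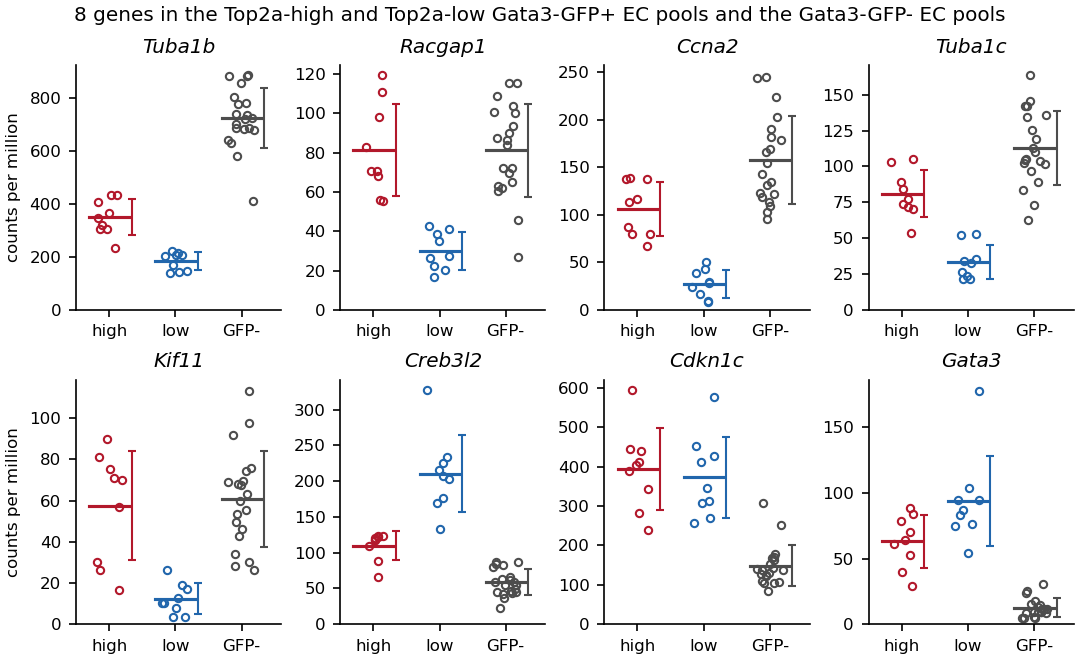
CPM of 8 genes in each Top2a-high pool (red, n = 9), Top2a-low pool (blue, n = 9) and Gata3-GFP- EC pool (grey, n = 20), with the mean as a horizontal line and the SD as a bar beside it. The red and blue circles do not overlap for *Tuba1b*, *Racgap1*, *Ccna2*, *Tuba1c* and, in the other direction, *Creb3l2*, and they share nearly the same range for *Cdkn1c*.

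3 of the 4 called genes lie near each other on chromosome 15. *Tuba1b* (98931425 to 98934565, minus strand), *Tuba1c* (99029891 to 99038110, plus strand) and *Racgap1* (99620496 to 99651656, minus strand) are all protein-coding genes in GENCODE M21 on GRCm38. Along the stretch from *Tuba1b* to *Racgap1*, 12 genes entered the fit, with a median log2 fold change of 0.17. An unadjusted p under 0.05 was reached by 4 rising genes, the 3 called ones included, and by 0 falling genes. The stretch was chosen by its called genes, and *Tuba1b* and *Tuba1c* may share reads. Whether position played a part was not tested.

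The promoters of cell cycle genes are known to carry short motifs that time their expression. The cell cycle genes homology region (CHR) and the CCAAT box, bound by NF-Y, are typical of genes expressed in G2 and mitosis, and E2F sites of genes expressed at the start of S phase. The 250 bases upstream of the RefSeq start of 2 of the called genes and of 3 genes at the centre of the mitotic lists are given so that the motifs can be compared. They are RefSeq sequences on GRCm38.p6, 5′ to 3′ on the gene's own strand, at chr15:99651657-99651906 (Racgap1, minus), chr15:98934391-98934640 (Tuba1b, minus), chr19:37376132-37376381 (Kif11, plus), chr10:69352913-69353162 (Cdk1, minus) and chr13:100786487-100786736 (Ccnb1, minus). The RefSeq and GENCODE M21 starts are not always the same. Most of the *Tuba1b* window and part of the *Cdk1* and *Ccnb1* windows lie inside the GENCODE gene, so few of the *Tuba1b* bases searched lie upstream of that start. The *Kif11* window ends short of its GENCODE gene. Distances are counted from the RefSeq start. Capitals mark every match, on either strand, to a CHR (TTTGAA, or TTCGAA, which is its own reverse complement), a CCAAT box (CCAAT) or an E2F word (TTTCCCGC, TTTGGCGC, TTTCGCGC or TTTGCCGC).
Racgap1: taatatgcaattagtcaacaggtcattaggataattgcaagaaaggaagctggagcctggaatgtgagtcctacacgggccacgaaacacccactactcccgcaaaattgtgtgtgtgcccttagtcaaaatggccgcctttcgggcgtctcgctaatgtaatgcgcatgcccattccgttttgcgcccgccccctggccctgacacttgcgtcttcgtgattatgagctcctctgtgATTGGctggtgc
Tuba1b: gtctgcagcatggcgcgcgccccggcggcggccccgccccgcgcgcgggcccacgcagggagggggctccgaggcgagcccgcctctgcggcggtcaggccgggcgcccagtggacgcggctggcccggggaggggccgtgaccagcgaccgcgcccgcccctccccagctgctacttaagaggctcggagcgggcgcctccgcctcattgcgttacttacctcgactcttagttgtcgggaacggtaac
Kif11: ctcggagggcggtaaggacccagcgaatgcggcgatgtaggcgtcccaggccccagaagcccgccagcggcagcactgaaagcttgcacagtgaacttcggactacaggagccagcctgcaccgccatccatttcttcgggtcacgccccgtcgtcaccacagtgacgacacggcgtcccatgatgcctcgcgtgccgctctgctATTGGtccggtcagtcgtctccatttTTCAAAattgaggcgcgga
Cdk1: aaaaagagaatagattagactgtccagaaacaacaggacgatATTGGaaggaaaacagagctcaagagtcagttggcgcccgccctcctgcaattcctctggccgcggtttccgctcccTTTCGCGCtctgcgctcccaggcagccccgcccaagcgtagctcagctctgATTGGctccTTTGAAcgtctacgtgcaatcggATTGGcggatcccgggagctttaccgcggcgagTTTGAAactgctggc
Ccnb1: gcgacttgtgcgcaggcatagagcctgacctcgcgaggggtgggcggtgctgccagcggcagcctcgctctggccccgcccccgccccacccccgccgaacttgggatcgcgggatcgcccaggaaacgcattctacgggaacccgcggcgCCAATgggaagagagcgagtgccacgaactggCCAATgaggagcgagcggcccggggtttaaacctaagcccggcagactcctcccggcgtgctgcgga
The *Racgap1* window held a CCAAT box 12 bases before the start and no other match. The *Kif11* window held a CHR at 19 and a CCAAT box at 45 bases before the start, close together. The *Cdk1* window held matches to all 3 motifs: a CHR at 15 and at 71 bases, a CCAAT box at 48, 80 and 208 bases and an E2F word at 131 bases. The *Ccnb1* window held CCAAT boxes at 67 and 99 bases, and the *Tuba1b* window held none of these words. 2 further windows were searched and are not printed. That of the called gene *Tuba1c* held a CCAAT box 151 bases before the start and no other match. That of *Cdca8* held 3 CCAAT boxes, the nearest at 11 bases, and no other match. No such window was found for *Ccna2* in the sequences used here.

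Over all 32851 RefSeq promoter windows of this length, 17.2% held a CHR, 33.9% a CCAAT box, 1.86% an E2F word and 6.02% both a CHR and a CCAAT box. Among 30 windows of the spindle list, 13 held a CHR (43.3%), 20 a CCAAT box (66.7%) and 10 both (33.3%). Of 16 windows of the cyclin and kinase list, 14 held a CCAAT box (87.5%) and 5 a CHR (31.2%). In 23 windows of the kinetochore list, the third mitotic list, a CHR was present in 3 (13.04%), under its share of all promoters, a CCAAT box in 13 (56.5%) and both in 2 (8.70%). Among 45 windows of the replication licensing list, 7 held a CHR (15.6%), 23 a CCAAT box (51.1%) and 9 an E2F word (20%). These are matches of letters, counted without a test, and some genes have more than 1 window.

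Lists of genes for each step of the cycle were compared between the classes. The share of a list that passed an unadjusted p under 0.05 is read against the 2.99% of all genes that were higher and the 2.62% that were lower. The lists were chosen with earlier results of these data known, so these shares are descriptions and not independent support. Counts by sign are read against the 6847 of all 13785 genes that had a positive fold change. Of 23 tested genes for S and M cyclins, Cdk1 and mitotic kinases, all 23 had a positive fold change, 19 were higher at an unadjusted p under 0.05, 0 lower, and 1, *Ccna2*, was called. Their median log2 fold change was 1.24. *Ccnb1*, cyclin B1, the partner of Cdk1 at mitotic entry, ran from 25.4 to 127 CPM (median 98.8) in the Top2a-high pools and from 2.68 to 39.9 (median 23.3) in the Top2a-low pools. 8 of 9 high pools lay above every low pool, and its log2 fold change was 1.97 (SE 0.37; adjusted p = 0.0331, edgeR quasi-likelihood, Benjamini-Hochberg).

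*Cdk1*, the kinase that drives entry into mitosis, ran from 166 to 383 CPM (median 257) against 52.9 to 183 (median 98.4), and 7 of 9 pools of each class lay beyond the range of the other. Its log2 fold change was 1.17 (SE 0.23; adjusted p = 0.0427, edgeR quasi-likelihood, Benjamini-Hochberg). *Plk1* and *Aurka*, kinases that build the spindle poles, had medians of 50.6 and 71.9 CPM in the Top2a-high pools and 9.23 and 20.0 in the Top2a-low pools, and *Aurkb*, the kinase of the chromosomal passenger complex, 35.9 against 5.71. Each of these 3 passed the unadjusted threshold, with log2 fold changes of 1.94, 1.42 and 1.65, and none reached an adjusted p under 0.05. *Cdc25c*, the phosphatase that activates Cdk1, had the widest fold change of the list (log2 3.23, SE 0.76; adjusted p = 0.113, same test), with 7.34 to 64.3 CPM in the Top2a-high pools and 0 to 16.9 in the Top2a-low pools, where only 1 pool held at least 10 counts. It passed the filter on low counts (10 counts in 5 or more pools) through the Top2a-high pools, so its place among the higher genes is a description. Its fold rested on very few counts in the low class, and *Gm3550* on the opposite strand overlaps 12.7% of its exon bases.

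The spindle list holds kinesins, microtubule-binding proteins and cytokinesis proteins. All 31 tested genes had a positive fold change, 27 were higher and 0 lower at an unadjusted p under 0.05, 2 were called (*Racgap1* and *Tuba1c*), and the median log2 fold change was 1.49. *Kif11*, the kinesin that pushes spindle poles apart, ran from 16.6 to 89.8 CPM (median 70.1) against 3.33 to 26.5 (median 10.3), with 8 of 9 high pools above every low pool. Its log2 fold change was 2.22 (SE 0.40; adjusted p = 0.0248, edgeR quasi-likelihood, Benjamini-Hochberg). *Ckap5*, a microtubule polymerase, had medians of 87.9 against 43.5 CPM, and *Tubb4b*, a beta-tubulin, 181 against 84.6, with log2 fold changes of 0.92 and 1.10. Among the other kinesins *Kif4* and *Kif18b*, which act on chromosome arms and plus ends, had log2 fold changes of 2.25 and 2.77, and *Aspm*, a spindle pole protein, 1.92.

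Among kinetochore and chromosomal passenger genes, 16 of 24 tested were higher and 0 lower, with a median log2 fold change of 1.28. *Cdca8*, borealin of the passenger complex, ran from 62.2 to 159 CPM (median 115.5) against 9.28 to 61.2 (median 34.1), and *Sgo1*, shugoshin, which protects cohesin at centromeres, from 18.8 to 77.8 (median 23.6) against 2.85 to 12.1 (median 8.49). Neither gene overlapped between the classes. Their log2 fold changes were 1.79 (SE 0.32; adjusted p = 0.0248) and 2.09 (SE 0.35; adjusted p = 0.0136) in edgeR's quasi-likelihood fit, Benjamini-Hochberg adjusted. *Cenpf*, a kinetochore protein of G2, had medians of 127 and 41.0 CPM, and *Birc5*, survivin, 203 and 83.6.

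Fewer genes passed in other steps late in the cycle. Of 19 genes of condensin, cohesin and chromosome structure, 8 were higher and 0 lower, and the median was 0.41 on the log2 scale. The condensin subunits *Smc4*, *Ncapd2* and *Ncapg*, which compact mitotic chromosomes, were among the higher genes at 1.04, 1.07 and 1.48. So was *Mki67*, the Ki-67 antigen that coats mitotic chromosomes, which ran from 69.6 to 269.8 CPM (median 119.9) in the Top2a-high pools and from 9.25 to 156 (median 42.0) in the Top2a-low pools. The classes overlapped, since only 2 high pools lay above every low pool, and the log2 fold change of 1.22 had an unadjusted p of 0.00806 and an adjusted p of 0.544 (edgeR quasi-likelihood, Benjamini-Hochberg). Of 21 genes of the anaphase-promoting complex and mitotic exit, 4 were higher (*Ube2c*, *Cdc20*, *Fzr1* and *Fbxo5*) and 1 lower (*Anapc4*), with a median of 0.14. *Ube2c*, the ubiquitin-conjugating enzyme of that complex, ran from 138 to 419 CPM (median 269) against 6.05 to 164.5 (median 40.2), with 8 of 9 high pools above every low pool. It shares 22.8% of its exon bases with *Tnnc2* on the opposite strand.

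*Foxm1*, the transcription factor that drives many G2 and mitotic genes, was the only 1 of 21 tested genes of E2F, pocket protein and MuvB factors to pass the unadjusted threshold. It ran from 10.9 to 42.8 CPM (median 21.6) in the Top2a-high pools and from 0.513 to 14.99 (median 1.79) in the Top2a-low pools, with 8 of 9 high pools above every low pool. The log2 fold change was 2.54 (SE 0.59; adjusted p = 0.111, edgeR quasi-likelihood, Benjamini-Hochberg), and the median of the list was -0.01. At least 10 *Foxm1* counts were held by 9 high pools and 3 low pools. It thus passed the filter on low counts through the Top2a-high pools, and its place as a higher gene is a description.

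**Figure D3:**
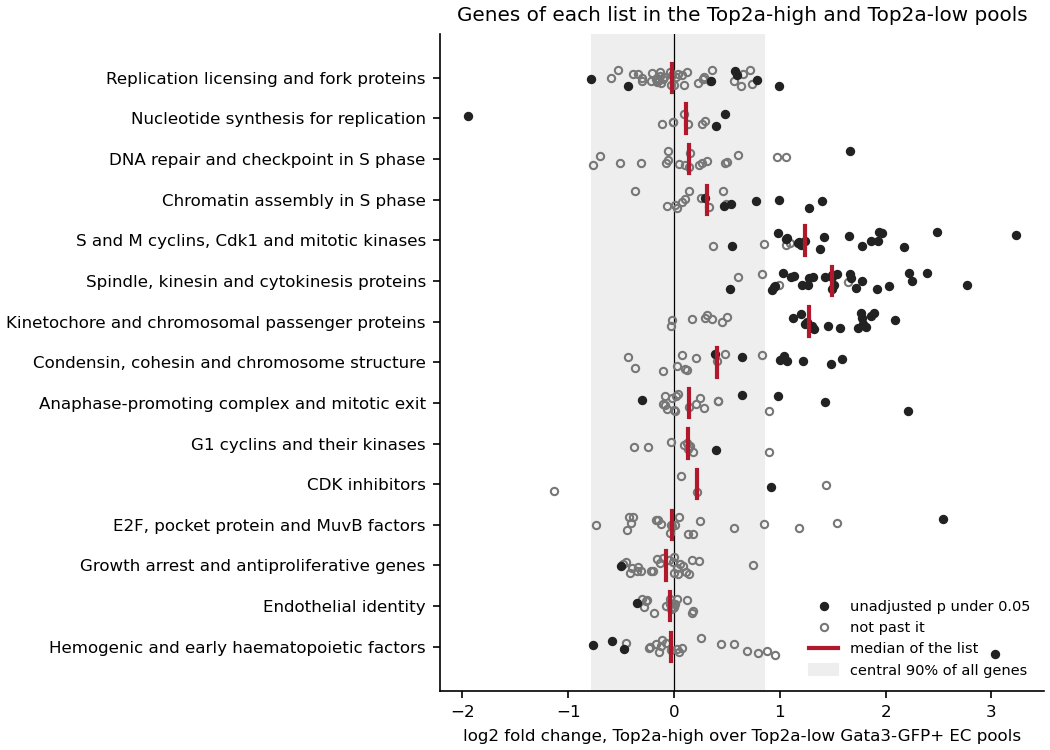
Log2 fold change (x axis) of each tested gene, Top2a-high over Top2a-low Gata3-GFP+ EC pools, in 15 lists (rows), filled where the unadjusted p was under 0.05, with the list median as a red line and the central 90% of all 13785 genes in grey (-0.77 to 0.85). The medians of the cyclin and kinase, spindle and kinetochore lists, 1.24, 1.49 and 1.28, lie right of the grey band, and those of the other lists inside it.

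The S phase lists (licensing, nucleotide synthesis, repair and chromatin assembly) held smaller shares of higher genes than the cyclin and kinase, spindle and kinetochore lists. Each share was still above the 2.99% of all genes, in the repair list through 1 gene. Of 45 tested replication licensing and fork genes, 5 were higher and 2 lower at an unadjusted p under 0.05, 0 were called in either direction, and the median log2 fold change was -0.02. That median rested on the pool at rank 14, without which 5 were higher and 0 lower with a median of 0.19, and without the pools at ranks 6 and 14 it was 0.16, with 4 higher and 1 lower. The higher genes included both subunits of DNA primase, *Prim1* and *Prim2* (0.60 and 0.79), and the helicase cofactor *Cdc45*, besides *Orc5* and *Rpa3*, and the lower genes were *Mcm2* and the nuclease *Dna2*. *Mcm2*, a subunit of the helicase that opens origins, ran from 40.5 to 95.4 CPM (median 81.6) in the Top2a-high pools and from 80.0 to 188.5 (median 98.3) in the Top2a-low pools, a log2 fold change of -0.44 (adjusted p = 0.732, edgeR quasi-likelihood, Benjamini-Hochberg). 8 of 9 low pools lay above the median of the high pools, with overlapping ranges. *Mcm5*, of the same helicase, had medians of 66.3 and 73.2 CPM, and *Pcna*, the sliding clamp of the fork, 105 and 102.5. Their log2 fold changes, -0.14 (SE 0.23) and 0.34 (SE 0.23), did not pass any threshold. The sign of *Mcm5* depended on the pool at rank 14, without which the fold change was 0.02.

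Among 10 tested nucleotide synthesis genes 2 were higher (*Tyms* and *Dut*) and 1 lower (*Shmt1*), with a median of 0.11, and among 20 genes of S phase repair and checkpoints 1 was higher (*Fancd2*) and 0 lower, with a median of 0.14. Without the pools at ranks 6 and 14 these medians were 0.25 and 0.56, with 1 higher nucleotide synthesis gene, 2 higher repair genes and 0 lower in both lists, and without the pool at rank 14 alone they were 0.21 and 0.46. The chromatin assembly list had 7 of 18 genes higher, 0 lower and a median of 0.31 on the log2 scale. *Hmgb2*, a chromatin protein of dividing cells, had a log2 fold change of 0.99. *H2afx*, the histone variant H2A.X, ran from 103 to 221 CPM (median 159.7) in the Top2a-high pools and from 41.6 to 101 (median 55.6) in the Top2a-low pools, without overlap. Its log2 fold change was 1.27 (SE 0.21; adjusted p = 0.0136, edgeR quasi-likelihood, Benjamini-Hochberg). In GENCODE M21, *Gm44335* on the opposite strand overlaps 10.2% of its exon bases.

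The lists were also summed over their members in each pool. The spindle list summed to 1178 to 2264 CPM (median 1917) in the Top2a-high pools and to 441.5 to 1056 (median 854) in the Top2a-low pools, without overlap. In the *Gata3*-GFP- EC pools it summed to 1412 to 3096 (median 2123), and 2 of 9 Top2a-high and all 9 Top2a-low pools lay below all of them. The licensing list summed to 1913 to 2978 CPM (median 2157) in the Top2a-high pools and to 1476 to 3417 (median 2124) in the Top2a-low pools. All 9 high pools and 8 of 9 low pools lay below the lowest of the *Gata3*-GFP- pools, which ran from 3099 to 5095 (median 4255). Pools of both classes thus held low licensing gene levels next to *Gata3*-GFP- ECs, whatever their *Top2a*. The spindle sums of the Top2a-high pools overlapped those of the *Gata3*-GFP- pools, and 3 of their 9 cyclin and kinase sums lay below all *Gata3*-GFP- pools. The high class was picked on *Top2a*, which goes with these genes, and the *Gata3*-GFP- pools were not picked, so no conclusion is drawn from that overlap. These sums are descriptions, without a test.

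**Figure D4:**
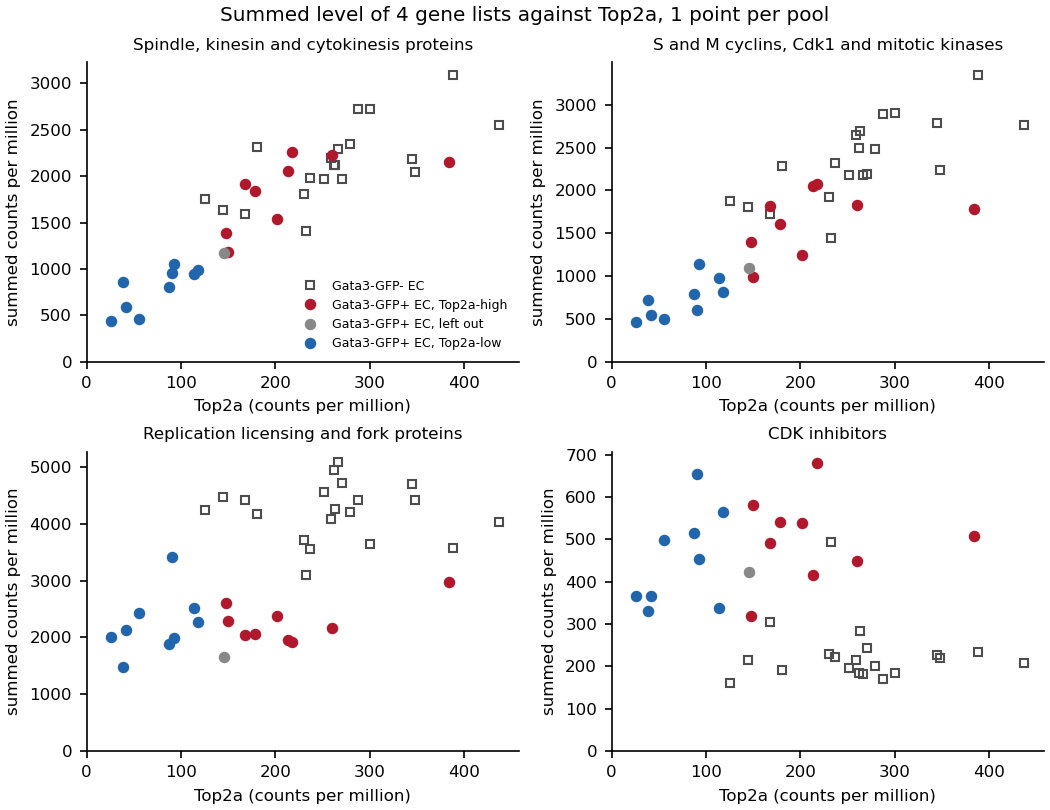
Summed CPM of 4 gene lists (y axes) against *Top2a* CPM (x axes) in each Gata3-GFP+ EC pool (filled circles; red Top2a-high, grey left out, blue Top2a-low) and each Gata3-GFP- EC pool (open squares). The spindle sums of the red circles, from 1178, lie above those of the blue circles, up to 1056, whereas for the licensing list both colours share a range below nearly all squares and for the CDK inhibitors a range above nearly all squares.

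Few genes of the G1 machinery or the brakes of the cycle passed a threshold. Of 11 G1 cyclins and kinases 1 was higher (*Cdk2*, 0.39 on the log2 scale) and 0 lower, with a median log2 fold change of 0.13. *Ccnd1*, cyclin D1, which starts the G1 program, was low in both, with 4.25 to 58.6 CPM in the Top2a-high pools and 0.832 to 36.4 in the Top2a-low pools, all below the lowest *Gata3*-GFP- pool at 103 CPM. It shares 23.4% of its exon bases with *LTO1* on the opposite strand. Of 7 CDK inhibitor genes 5 were tested, 1 was higher and 0 lower. That gene was *Cdkn2d*, the INK4 inhibitor p19, with medians of 36.7 against 24.4 CPM and a log2 fold change of 0.91 (adjusted p = 0.431, edgeR quasi-likelihood, Benjamini-Hochberg).

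*Cdkn1b* ran from 33.5 to 72.5 CPM (median 48.0) in the Top2a-high pools and from 26.1 to 62.1 (median 36.3) in the Top2a-low pools, and *Cdkn1a*, a target of p53, from 0.294 to 14.2 (median 2.61) against 0 to 30.4 (median 5.14). Both ranges overlapped, and their log2 fold changes of 0.22 (SE 0.19) and -1.14 (SE 0.81) passed no threshold. The CDK inhibitor list summed to a median of 507 CPM in the Top2a-high pools, 453 in the Top2a-low pools and 215 in the *Gata3*-GFP- EC pools. *Cdkn1c* itself lay at 85.4 to 307 CPM (median 137) in the *Gata3*-GFP- pools, and no pool of either *Gata3*-GFP+ class fell below the lowest of them. Of 26 growth arrest and antiproliferative genes 0 were higher and 1, *Foxo1*, lower, and of 14 imprinted growth genes 0 were higher and 1, *H19*, lower (log2 fold change -0.26; adjusted p = 0.379, same test).

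On the other side, *Creb3l2* was the only gene lower in the Top2a-high pools at an adjusted p under 0.05, and it is named after its value was seen. It encodes a membrane-bound transcription factor of the secretory pathway. It ran from 65.6 to 124 CPM (median 117.5) in the Top2a-high pools and from 134 to 327 (median 207) in the Top2a-low pools, without overlap, a log2 fold change of -0.95 (SE 0.15; adjusted p = 0.0129, edgeR quasi-likelihood, Benjamini-Hochberg). In the *Gata3*-GFP- EC pools, a separate population, it ran from 22.2 to 86.6 CPM (median 56.5). *Arl6ip1*, a protein that shapes the endoplasmic reticulum, was among the 13 higher genes without overlap and is likewise named after its value was seen. It had medians of 708 and 438 CPM and a log2 fold change of 0.65 (SE 0.11). Its median in the *Gata3*-GFP- EC pools was 399 CPM, below the medians of both classes.

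Endothelial identity genes were close to all genes, whereas some genes of endothelial signalling were lower. Of 18 endothelial identity genes 0 were higher and 1 lower (median log2 fold change -0.04), and of 20 arterial and Notch genes 0 were higher and 3 lower (median -0.03). The lower genes were *Tek*, the angiopoietin receptor Tie2, with medians of 607 against 782 CPM, and *Nrp1*, a VEGF and semaphorin co-receptor, with 977 against 1256, together with *Notch4* and *Jag1*, a receptor and a ligand of the Notch pathway, at log2 fold changes of -0.31 and -0.28. For *Tek* and *Nrp1* all 9 Top2a-low pools lay above the median of the Top2a-high pools, with log2 fold changes of -0.35 each and adjusted p-values of 0.298 and 0.521 (edgeR quasi-likelihood, Benjamini-Hochberg). The VEGF, BMP and TGF-beta list held 1 higher gene, the angiopoietin *Angpt2*, and 5 lower genes of 23, with a median of -0.06. The lower genes were the ligands *Vegfa* (-0.79) and *Bmp6* (-1.20), the receptor *Bmpr2* (-0.48), the inhibitory *Smad6* (-0.25) and the factor *Etv5* (-1.27), and none had an adjusted p under 0.05. Without the pools at ranks 6 and 14, 3 of the arterial and Notch genes and 3 of this list were lower. The 8 tested flow-responsive genes all had negative fold changes (median -0.26), of which 0 passed the unadjusted threshold. Among all 13785 genes 6847 were positive.

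Of 23 tested hemogenic and early hematopoietic factors 1 was higher and 3 lower, with a median of -0.03 on the log2 scale. The lower genes were *Gata3*, *Tal1* and *Bcl11a*, and without the pools at ranks 6 and 14 there were 0 lower and 2 higher. *Gata3*, whose reporter defined the population, ran from 28.8 to 88.2 CPM (median 64) in the Top2a-high pools and from 54.2 to 178 (median 87.0) in the Top2a-low pools. The ranges overlapped, 8 of 9 low pools lay above the median of the high pools, and the log2 fold change was -0.58 (SE 0.22; unadjusted p = 0.0167, adjusted p = 0.674, edgeR quasi-likelihood, Benjamini-Hochberg). The *Gata3*-GFP- pools, at 4.36 to 30.9 CPM, reached only the low end of the Top2a-high range. In all of these embryos 1 *Gata3* allele carries GFP, so these levels come from heterozygous cells.

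The higher gene was *Gfi1*, a repressor that silences endothelial genes during the emergence of blood cells. It passed the filter on low counts through the Top2a-high pools, so its place among the higher genes is a description. It ran from 0 to 34.1 CPM (median 17.3) in the Top2a-high pools, 2 of which were at 0, and from 0 to 9.62 (median 0.277) in the Top2a-low pools, 2 of which were also at 0. 7 of the 9 high pools and 1 of the 9 low pools held at least 10 counts, and 5 high pools lay above every low pool. The log2 fold change of 3.03 (SE 1.03) had an unadjusted p of 0.00809 and an adjusted p of 0.544 (edgeR quasi-likelihood, Benjamini-Hochberg). *Runx1*, the master regulator of the transition, ran from 0.774 to 67.7 CPM (median 20.9) against 0.447 to 69.0 (median 3.57), and both classes held pools at each end of this range.

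Lists outside the cell cycle held few genes past the unadjusted threshold. Of 14 genes of the Myc network 1 was higher and 0 lower, of 18 glycolysis genes 3 and 0 (*Hk2*, *Aldoa* and *Eno1*), of 20 immediate early and dissociation stress genes 1 and 0 (*Jun*), of 15 p53 targets 1 and 1, of 19 basement membrane and matrix genes 0 and 1 (*Fn1*) and of 10 venous and lymphatic genes 1 and 1. Their median log2 fold changes lay at 0.17, 0.15, -0.02, -0.14, -0.07 and 0.45.

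Markers of other cells were checked in the same pools. Of 13 tested hematopoietic markers 0 were higher and 0 lower, and they summed to 198 to 469 CPM in the Top2a-high pools and to 261 to 510 in the Top2a-low pools. Mesenchymal markers summed to 31.7 to 1563 CPM against 54.9 to 313, and mural cell markers to 100.2 to 3457 against 128 to 502, and in both lists 1 gene was higher, *Col1a1* and *Acta2*, whose highest values lay in the pool at rank 6. Without the pools at ranks 6 and 14, 0 mesenchymal and 0 mural markers were higher, while the unadjusted counts were 19 of 23 for the cyclin and kinase list, 27 of 31 for the spindle list and 17 of 24 for the kinetochore list. Of the erythroid, megakaryocyte, sympathetic and duct epithelium markers 4, 7, 3 and 4 were tested, of which 0 were higher and, in the last 2 lists, 1 each was lower (*Elavl4* and *Ret*). *Ddx3y*, on the Y chromosome, had a median of 16.7 CPM against 43.3 (log2 fold change -0.99, unadjusted p = 0.00994), and *Xist*, from the inactive X, 317 against 309. The sex of the pooled embryos is not given here, and the part of this difference in the other results was not tested.

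Scaling by ERCC spike-ins, which keeps differences in total RNA, shifted the median log2 fold change of all genes to -0.30. Under it 0 genes were called, 13 of 23 cyclin and kinase, 15 of 31 spindle and 9 of 24 kinetochore genes were higher at an unadjusted p under 0.05, and their list medians were 1.03, 1.04 and 0.96. *Cdkn1c*, *Cdkn1b* and *Pcna* turned negative, at -0.38, -0.22 and -0.09.

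The *Gata3*-GFP- EC pools, which the ranking did not use, gave a second look at genes that go with *Top2a*. In them the slope of each gene on log2(*Top2a* CPM + 1) was fitted over 13040 genes, and 0 were called (3 positive and 1 negative by DESeq2's Wald test), while 333 (2.55%) had a positive and 260 (1.99%) a negative slope at an unadjusted p under 0.05. Positive slopes at that threshold were found for 15 of 31 spindle genes, 15 of 24 kinetochore genes and 11 of 23 cyclin and kinase genes, and for 0 of 45 licensing genes, 1 of which was negative. *Cdk1* had a slope of 0.60 per doubling (SE 0.13; adjusted p = 0.264, edgeR quasi-likelihood, Benjamini-Hochberg) and *Cenpf* 0.94 (SE 0.24; adjusted p = 0.478). *Tuba1b*, in contrast, had a slope of -0.02 (SE 0.13) in these pools and *Ccna2* of 0.18 (SE 0.20).

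Of the genes higher in the Top2a-high class at an unadjusted p under 0.05, 386 could be fitted in the *Gata3*-GFP- pools. There 237 of them had a positive slope, 76 (19.7%) at that threshold, against 2.55% of all genes fitted. The 76 were 23.5% of the 324 genes with such a slope. Of the 76, 47 belonged to the cell cycle lists, which were chosen with earlier results of these data known. Of 328 lower genes fitted there, 149 had a negative slope, 6 of them (1.8% of the 328) at an unadjusted p under 0.05. Of all genes fitted there, 50.4% had a positive slope, and 1.99% a negative slope at that threshold. The lower genes thus had negative slopes no more often than all genes. Of the 15 genes with an adjusted p under 0.05 between the classes, 10 had a positive slope at an unadjusted p under 0.05 in the *Gata3*-GFP- pools.

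**Figure D5:**
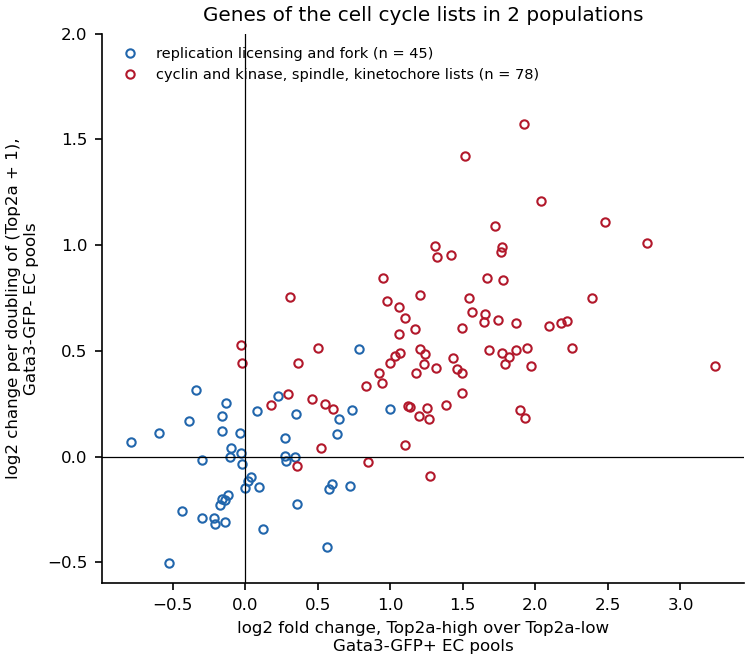
For genes of 3 mitotic lists (red, n = 78) and of the replication licensing list (blue, n = 45), the log2 fold change of Top2a-high over Top2a-low Gata3-GFP+ EC pools (x axis) against the log2 change per doubling of *Top2a* CPM + 1 across the Gata3-GFP- EC pools (y axis). Of the 78 mitotic genes 73 lie above 0 on both axes, and of the 45 licensing genes 10. Of all 13785 genes 6847 were above 0 on the x axis, and of all genes fitted in the Gata3-GFP- pools 50.4% on the y axis.

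Whether slopes differed between the populations was tested directly over 15072 genes in 1 model. 0 were called (0 and 1 by DESeq2's Wald test), and 574 (3.81%) differed at an unadjusted p under 0.05, 280 with a steeper slope in *Gata3*-GFP+ ECs and 294 the other way. *Tuba1b* had a slope 0.48 higher in *Gata3*-GFP+ ECs (SE 0.15; unadjusted p = 0.00269) and *Ccna2* 0.76 higher (SE 0.30; unadjusted p = 0.0142), with adjusted p-values of 1 for both (edgeR quasi-likelihood, Benjamini-Hochberg). *Racgap1* differed by 0.23 (SE 0.25) and *Cdk1* by 0.02 (SE 0.19). At an adjusted p under 0.05 the edgeR test found 2 genes, both with the lower slope in *Gata3*-GFP+ ECs.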

How the data were processed

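Count tables of 160 libraries of 20 sorted mouse cells were used, of which this comparison takes the endothelial pools of E10.5. The authors deposited 1 table of raw read counts per gene, made with HTSeq and not normalized, with 46078 genes and 92 ERCC RNAs. The study's methods name STAR with an Ensembl 81 annotation, whereas the submitters' processing notes name GSNAP 2015-09-29, HTSeq 0.5.3p3 and mm10, so the aligner is uncertain. The strand and overlap settings are not given in the sources used here. A median of 19.9% of reads was counted as ambiguous between genes in the pools of both classes. Table columns name the population of a pool and not its sample.

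Pools were kept with over 500000 counts on genes plus ERCC and under 20% ERCC, and ranked by *Top2a* CPM over gene counts. No pools had identical counts. Genes reaching 10 counts in 5 or more pools were fitted with edgeR 4.0.16 (TMM scaling, robust quasi-likelihood test) in R 4.3.3, without *Top2a*, and p-values were adjusted by Benjamini-Hochberg over all genes tested. A gene was called when its adjusted p lay below 0.01 and its fold change past 0.1 on the log2 scale in either direction. Genes were named as members of the lists, as called genes, or as *Top2a*, *Cdkn1c* and *Gata3*, and *Creb3l2* and *Arl6ip1* after their values were seen. The scripts were tested on simulated data. The members and the 33 gene lists were chosen with earlier results of these data known. Alternatives were DESeq2 1.42.0, scanpy 1.11.5 on counts scaled with scran 1.30.0, other scalings, filters, class sizes and leaving out pools. Counts per pool ran from 1400824 to 6006894, without molecular identifiers, so depth limits low genes and counts of reads are not counts of molecules.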

Additional observations from a re-analysis of the deposited data

Results flagged for a closer look

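Values that lay far from the other 8 pools of their class, by Dixon's 95% criterion, were found in 16 of 98 groups of 9 pools. Chance alone flags about 1 in 20 groups where values are independent and normally distributed. CPM values need not be, and the groups share pools, so no excess over chance is read from the 16. The Top2a-high pool at rank 1 was the highest of its class for *Top2a* (384.2 CPM), *Mki67* (269.8) and *Pcna* (242.4). Its *Top2a* level set its rank, so that flag is a description, although it is counted among the 16. The Top2a-high pool at rank 3 was the lowest for *Mcm2* (40.52), and the pool at rank 6 the highest for *Acta2* (2600) and *Col1a1* (702.8).

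The Top2a-low pool at rank 14 was set apart by 6 values: the highest *Gata3* (177.8 CPM), *Mcm2* (188.5), *Nrp1* (1990) and *Ddx3y* (109.2), the highest share of reads in no gene (33.1%) and the lowest share on more than 1 gene (14.2%). The Top2a-low pool at rank 13 was the highest for *Cdc25c* (16.93) and *Col1a1* (43.05), that at rank 16 for *Gfi1* (9.615) and that at rank 19 for *Runx1* (69.02).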

How the results depend on the processing

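No paired analysis was possible because both classes lie in 1 population and the table columns carry no replicate number. The 4 higher and 0 lower genes between the classes became 46 and 3 with DESeq2's Wald test, 6 and 1 with at least 10 counts in at least 9 pools, and 14 and 1 at an adjusted p under 0.05. Higher genes numbered 7 with 6 pools per class, 23 with a slope on *Top2a* over all 19 pools, 2 with the gene to ERCC ratio as a covariate, and 0 with ERCC scaling, with the middle pool in the high class, with scanpy's test with overestimated variance and without the pools at ranks 6 and 14. Leaving out each pool in turn gave 0 to 7 higher and 0 to 1 lower genes. Slopes in *Gata3*-GFP- pools were called for 3 positive and 1 negative gene with DESeq2's Wald test and for 44 and 61 without a filter on low counts. Differences of slopes were called for 1 negative gene with DESeq2's Wald test, 2 negative at an adjusted p under 0.05, and 21 positive and 24 negative without the filter.

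The sign turned for *Cdkn1c* (-0.38), *Cdkn1b* (-0.22) and *Pcna* (-0.0890) with ERCC scaling, for *Mcm5* with the covariate (0.0396), the slope (0.0510) or without ranks 6 and 14 (0.0234), for *Cdkn1a* with 6 pools per class (0.14) or the slope (0.00878) and for *Runx1* with the slope (-0.0864). Leaving out 1 pool gave -0.0228 (rank 3) to 0.174 for *Cdkn1c*, -0.243 to 0.0163 (rank 14) for *Mcm5*, -0.250 to 0.00883 (rank 16) for *Xist* and -0.259 to 0.0819 (rank 16) for the difference in mitochondrial percent. None of these values passed a threshold, and the causes were not tested.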
